A study of Homo sapiens with 12 samples.

Results

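The 39 genes described here encode proteins of the centrosome and its centrioles. They were taken by symbol from a list of centrosome and centriole genes that includes the duplication kinase PLK4. All 39 were found among the 57773 gene identifiers of the deposited expression table, and all 39 were among the 19591 genes abundant enough to be tested. The cells are RPE1, an immortalised line derived from human retinal pigment epithelium, and they received Anillin siRNA or a non-targeting siRNA (labelled Random) for 24 h. Anillin (ANLN) is a scaffold of the contractile ring, and the series uses its knockdown to make cells fail cytokinesis and become polyploid. Living cells were stained with a Hoechst DNA dye and sorted into fractions of 2N and 4N DNA content. Each combination of siRNA and DNA content has 3 RNA-seq libraries, 12 in all, called here control or knockdown, with 2N or 4N for the fraction. The groups share the cell line, the transfection reagent and the growth medium with 10% serum, no untransfected group was analysed here, and ploidy is known only from DNA content. A 4N gate collects cells with replicated DNA in G2 or mitosis, and it can also collect G1 cells with a doubled genome.

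A centrosome is a pair of centrioles embedded in pericentriolar material that nucleates microtubules. Each centriole is copied once per cell cycle: CEP192 and CEP152 recruit PLK4 to the parental centriole, PLK4 and STIL start assembly, and SASS6 builds the cartwheel that sets the symmetry of the new centriole. The procentriole then elongates through S and G2 phase, and the linker between the pair of centrosomes is dissolved before mitosis. A cell that fails cytokinesis keeps both centrosomes.

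The total of reads in genes ranged from 17412742 to 61760450 per library, mitochondrial genes took 3.31% to 4.54% of them, and a member had from 68 to 7213 reads in a library. ANLN, the target of the siRNA, had 121, 80.0 and 107 RPM (the deposited RPKM without its division by gene length) in control 2N, 539, 477 and 511 in control 4N, 5.44, 3.72 and 2.53 in knockdown 2N and 6.33, 5.47 and 4.48 in knockdown 4N. Every knockdown library lay below every control library. Of 8 markers of retinal pigment epithelium, the keratins KRT8 and KRT18 averaged 405 to 487 and 372 to 520 RPM over the groups, and MITF, a transcription factor of the pigment lineage, 26.2 to 32.5 RPM. RPE65, BEST1 and PMEL reached at most 1.32, 2.13 and 1.01 RPM in any library, and TYR and RLBP1 at most 0.0459 and 0.588. The 8 markers summed to 975.4 to 1117 RPM in control 2N, 920 to 946.6 in control 4N, 876.6 to 963.3 in knockdown 2N and 781.1 to 835.8 in knockdown 4N. Of 6 blood markers, CD3E and HBB were listed at 0 and PTPRC did not exceed 0.262 RPM, while CD68 averaged 34.6 to 44.6 RPM over the groups. All 6 markers of other epithelia and muscle were under 1 RPM. Summed reads of the proliferation genes MKI67, TOP2A, CCNB1 and CDK1 were 332 to 458.5 RPM in control 2N, 2469 to 2742 in control 4N, 111.3 to 116.2 in knockdown 2N and 318.6 to 350.3 in knockdown 4N. The proliferation sum was higher or lower in the same direction as the summed member level in the siRNA and fraction comparisons that follow, and its part in those results was not tested. The pigment epithelium sum, nearly all of it from KRT8 and KRT18, was lower in 4N than in 2N cells under both siRNAs. The summed member level was higher in 4N than in 2N cells (1313 and 1987 RPM on average in control 2N and 4N, 1176 and 1307 in knockdown 2N and 4N). Among 4N cells RPE65 and MITF rose with Anillin siRNA (0.66 and 0.18, limma adjusted p = 0.00564 and 0.0371), and KRT8 and KRT18 fell (-0.18 and -0.26, limma adjusted p = 0.0131 and 0.000837). In bulk libraries of sorted cells, fewer cells expressing a gene and less of its RNA per cell cannot be told apart.

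Members were most abundant as a set in control 4N cells. Their summed level was 1265 to 1342 RPM in control 2N, 1925 to 2019 in control 4N, 1166 to 1184 in knockdown 2N and 1296 to 1328 in knockdown 4N. Every control 4N library lay above all 9 others, and the control 2N and knockdown 4N ranges overlapped. Differences between groups are given as log2 changes on log2(RPM + 0.25) ± SE, 3 libraries against 3, tested with limma over all genes at an adjusted p under 0.05. Gene positions are whole genes of GENCODE 29 on GRCh38, introns and UTRs included.

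**Figure D1:**
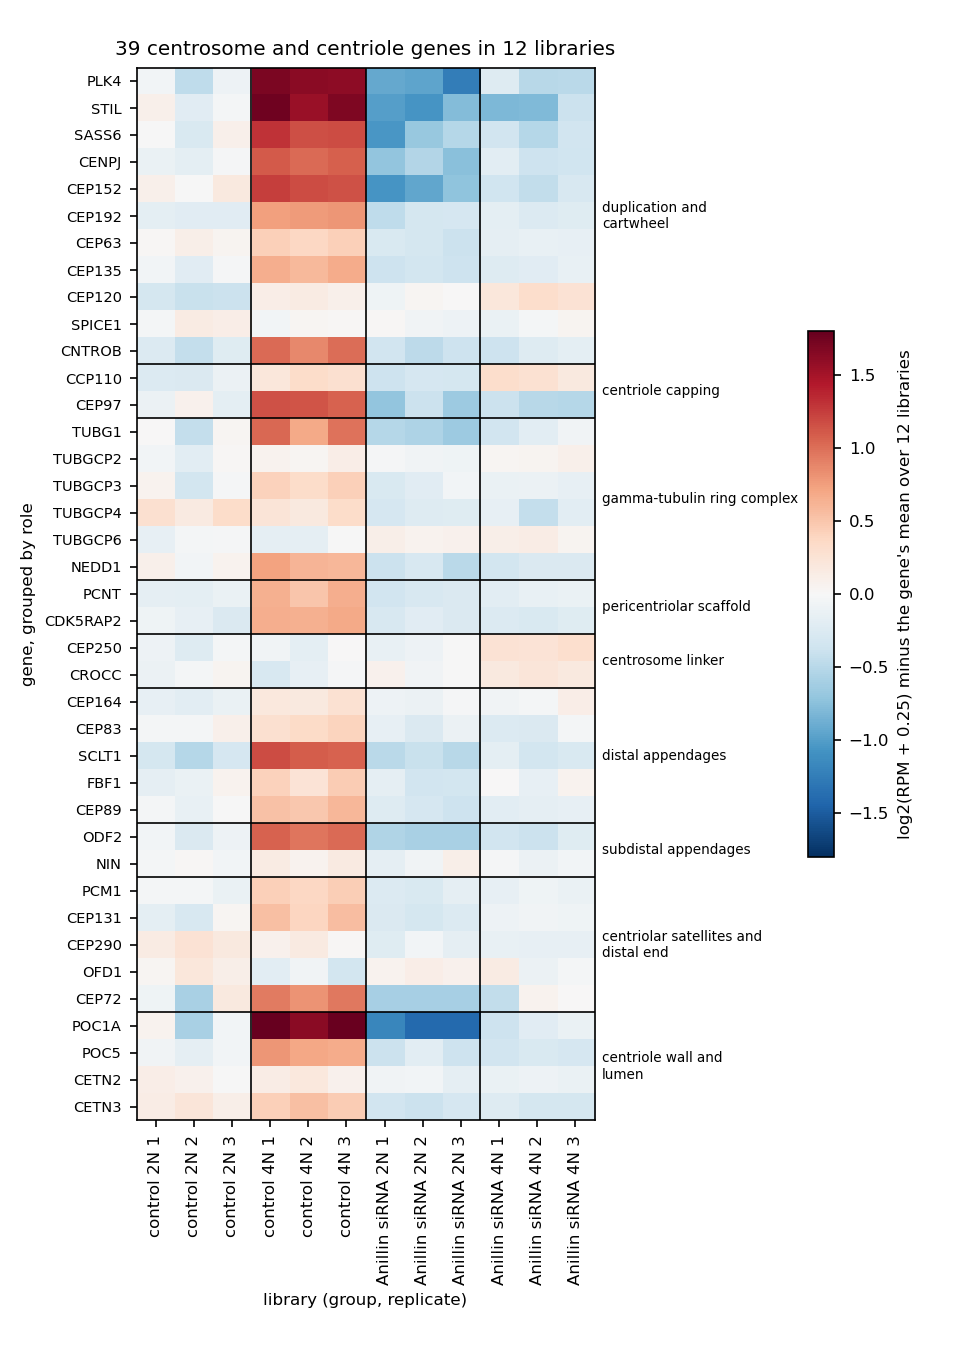
Each cell is log2(RPM + 0.25) of 1 gene in 1 library minus that gene's mean over the 12 libraries (colour scale), with genes in rows grouped by role and libraries in columns by group. The 3 control 4N columns are the reddest for the duplication genes other than CEP120 and SPICE1, and for CEP97, TUBG1, the scaffold, ODF2 and POC1A, while CEP250, CCP110 and CEP120 are reddest in the knockdown 4N columns or alike in both 4N groups.

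The comparison of knockdown 4N with control 4N asks what sets 4N cells of the cytokinesis block apart from control cells of equal DNA content. Of the 39 members, 31 fell and 5 rose, and 3 did not pass the test. Over all genes tested, 28.1% were called lower and 24.6% higher. The median change of the members was -0.70 beside -0.0020 over all genes tested. The falls ran through duplication factors (9 of 11), distal appendages (5 of 5), the pericentriolar scaffold (2 of 2) and the centriole wall and lumen (4 of 4), and CEP250 and CROCC of the centrosome linker rose. Without control 4N replicate 1 or without control 4N replicate 3, and also with voom, 3 members were called higher in place of 5.

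Among 2N cells, fewer members passed the test. In knockdown 2N against control 2N, 21 members fell (17.0% of all genes tested were called lower) and 1, CEP120, rose (12.5% called higher). The median was -0.18, beside -0.02 over all genes tested. With quantile scaling, median-of-ratios scaling or a filter of 2 RPM, TUBGCP6 was called higher as well. All 21 members that fell among 2N cells also fell among 4N cells, which is 21 of the 21 and of the 31. The 2 comparisons share no library, but the labels do not say whether their 2N and 4N fractions came from the same cultures. How many of all genes tested were called lower in both was not counted, so this overlap is not read as a trait of the members. Over the 39 members, the changes in these 2 comparisons had a Pearson r of 0.82, beside 0.76 over all genes tested. All 3 libraries of a group enter every gene's value, so this is given as a description.

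In control cells, 30 members rose from 2N to 4N (21.2% of all genes tested called higher) and 1, OFD1, fell (19.6% called lower), with a median of 0.60 beside -0.0026 over all genes. With quantile scaling CROCC and CEP290 were called lower too, which makes 3. The comparison of control 4N with control 2N shares its control 4N libraries with that of knockdown 4N against control 4N. Opposite changes of a gene in these comparisons are therefore not separate results. After knockdown, 9 members rose from 2N to 4N (3.36% called higher) and none fell (limma, 0 of 39 at an adjusted p under 0.05, with 2.14% of all genes called lower). The median there was 0.14, beside 0.0058 over all genes. Of the 9 members, 8 also rose in control cells, and the ninth was CEP250. The like overlap over all genes tested was not counted. Across the 39 members, r between these fraction differences was 0.65, beside 0.53 over all genes tested, with no library in common.

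**Figure D2:**
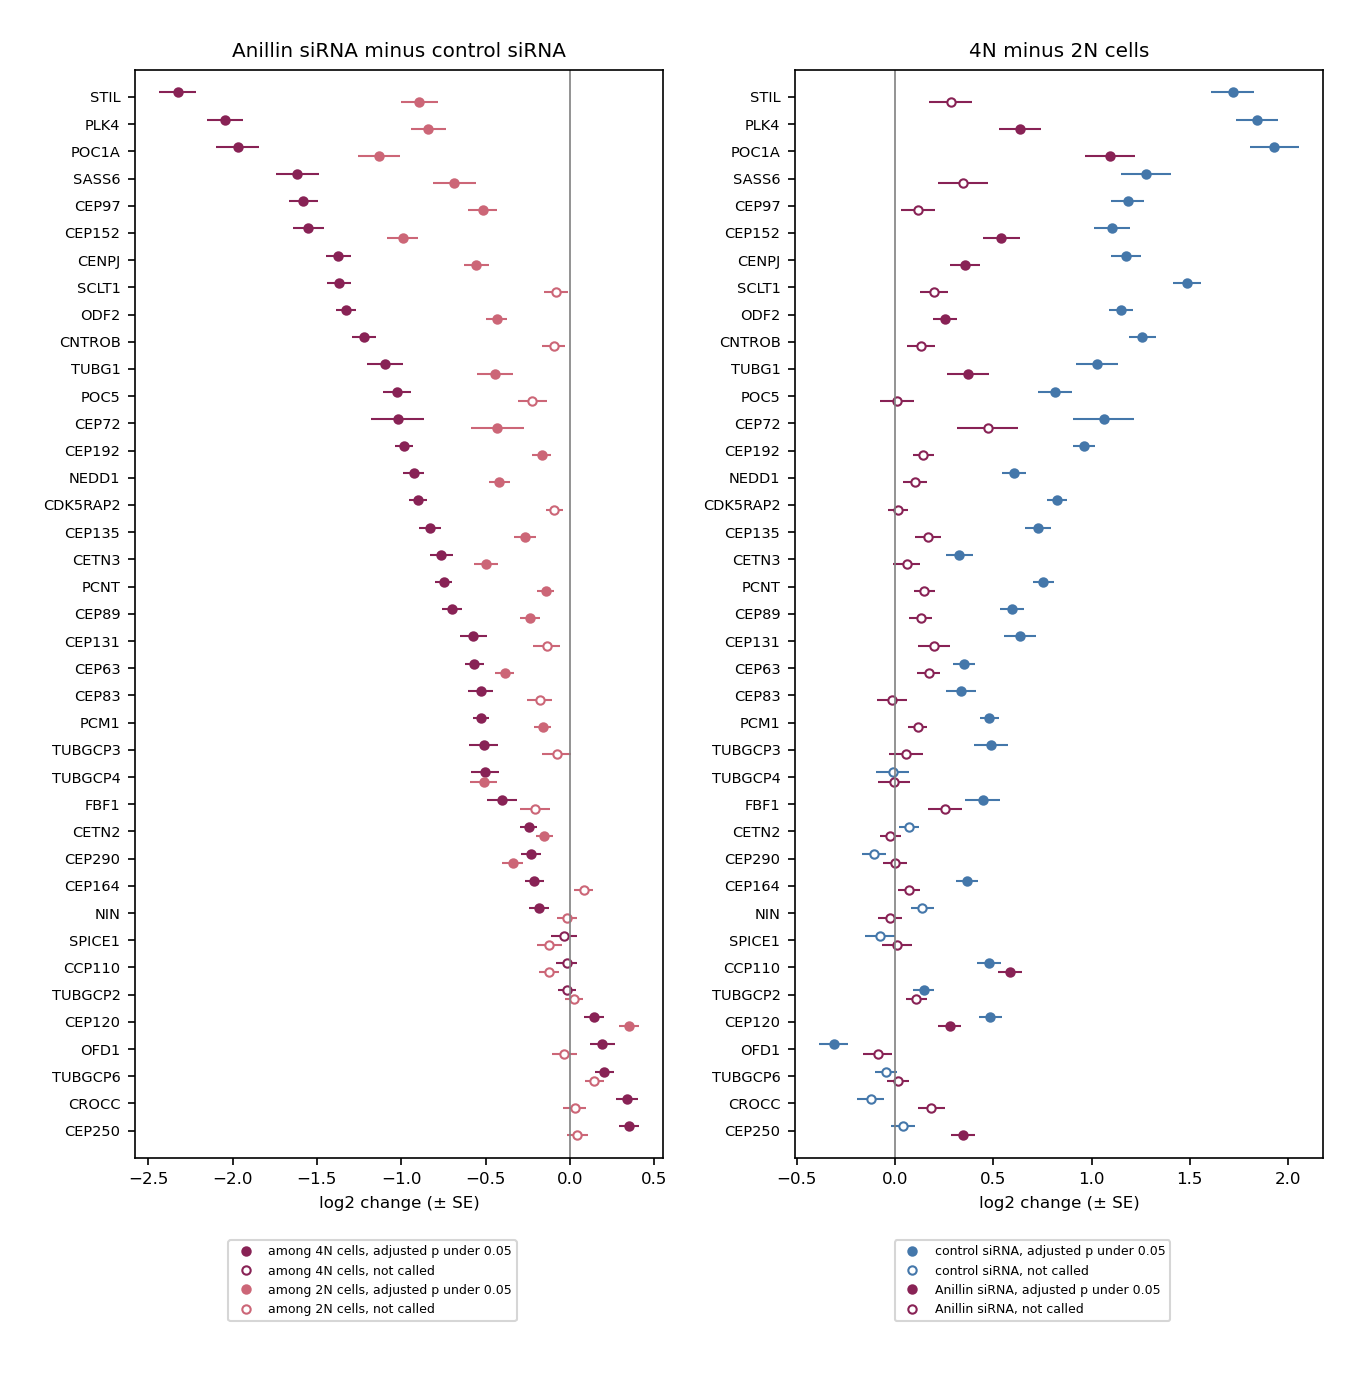
Log2 changes of the 39 members (points, ± SE, 3 libraries against 3), filled where the adjusted p was under 0.05. The left panel gives Anillin siRNA minus control among 4N and among 2N cells, and the right panel 4N minus 2N cells under each siRNA. STIL, PLK4 and POC1A have the largest falls among 4N cells (-2.33, -2.05 and -1.97), and CROCC and CEP250 are the furthest above 0 there.

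PLK4 (ENSG00000142731, chromosome 4, 127880861 to 127899195, plus strand), the kinase that licenses centriole duplication, had 18.3, 13.7 and 17.7 RPM in control 2N, 61.8, 58.6 and 58.2 in control 4N, 9.85, 9.67 and 7.81 in knockdown 2N and 16.0, 13.3 and 13.5 in knockdown 4N. The control 4N libraries stood far above the rest, the knockdown 2N libraries were the lowest, and knockdown 4N overlapped control 2N. PLK4 fell with Anillin siRNA by 2.05 ± 0.11 among 4N cells (4.13-fold, adjusted p = 1.46e-11) and by 0.84 ± 0.11 in the 2N fraction (adjusted p = 8.23e-06). From 2N to 4N it rose by 1.84 ± 0.11 in control cells (adjusted p = 1.08e-10) and by 0.64 ± 0.11 after knockdown (adjusted p = 0.000778).

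STIL (ENSG00000123473, chromosome 1, 47250139 to 47314147, minus strand), the PLK4 substrate that brings SASS6 to the assembly site, had 15.0, 12.1 and 13.7 RPM in control 2N, 47.8, 41.9 and 45.7 in control 4N, 6.91, 6.61 and 8.08 in knockdown 2N and 7.91, 8.01 and 10.7 in knockdown 4N. All 6 knockdown libraries lay below all 6 control libraries, and the knockdown fractions overlapped each other. STIL had the largest fall of any member among 4N cells, at -2.33 ± 0.11 (5.02-fold, adjusted p = 3.64e-12), and fell by 0.89 ± 0.11 in the 2N fraction (adjusted p = 6.08e-06). It rose by 1.72 ± 0.11 from 2N to 4N in control cells (adjusted p = 5.51e-10), while the difference after knockdown was 0.28 ± 0.11 (adjusted p = 0.164).

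SASS6 (ENSG00000156876, chromosome 1, 100083563 to 100132955, minus strand), the cartwheel protein, had 6.04, 4.97 and 6.45 RPM in control 2N, 15.3, 13.8 and 14.0 in control 4N, 2.79, 3.67 and 4.17 in knockdown 2N and 4.69, 4.15 and 4.74 in knockdown 4N. Its order of groups was that of STIL. It fell by 1.62 ± 0.13 in the 4N fraction (adjusted p = 4.94e-09) and by 0.69 ± 0.13 in the 2N fraction (adjusted p = 0.00044). CENPJ (ENSG00000151849, chromosome 13, 24882284 to 24922889, minus strand), which controls centriole length, had 18.9, 18.2 and 20.3 RPM in control 2N, 44.7, 42.1 and 43.9 in control 4N, 12.5, 14.3 and 12.2 in knockdown 2N and 18.1, 15.9 and 16.0 in knockdown 4N. The siRNA groups did not overlap in either fraction. CENPJ fell by 1.37 ± 0.07 in the 4N fraction (adjusted p = 2.93e-11) and by 0.55 ± 0.07 in the 2N fraction (adjusted p = 1.67e-05).

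CEP152 (ENSG00000103995, chromosome 15, 48712928 to 48811146, minus strand), a scaffold that recruits PLK4, had 9.79, 9.15 and 10.4 RPM in control 2N, 22.1, 21.1 and 20.6 in control 4N, 4.29, 4.68 and 5.46 in knockdown 2N and 7.09, 6.69 and 7.48 in knockdown 4N. The 4 groups did not overlap at all, with knockdown 2N lowest and control 4N highest. It fell by 1.55 ± 0.09 in the 4N fraction (adjusted p = 9.72e-11) and by 0.99 ± 0.09 in the 2N fraction (adjusted p = 2.34e-07). Its partner CEP192 averaged 33.8 ± 0.345 RPM (SD, n = 3) in control 2N, 66.1 ± 1.40 in control 4N, 30.1 ± 1.74 in knockdown 2N and 33.2 ± 0.797 in knockdown 4N, a fall of 0.99 ± 0.05 in the 4N fraction (adjusted p = 3.61e-11).

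CNTROB (ENSG00000170037, chromosome 17, 7932101 to 7949918, plus strand), a centriole-associated protein of daughter centrioles, had 30.4, 26.8 and 31.2 RPM in control 2N, 73.5, 66.1 and 72.8 in control 4N, 28.5, 26.1 and 27.9 in knockdown 2N and 28.0, 30.7 and 32.0 in knockdown 4N. Control 4N stood alone and the other 3 groups overlapped. CNTROB fell by 1.22 ± 0.07 in the 4N fraction (adjusted p = 5.81e-11), and among 2N cells its difference was -0.10 ± 0.07 (adjusted p = 0.339). CEP63 and CEP135, which act in the CEP152 ring and the cartwheel, fell among 4N cells by 0.57 ± 0.06 and 0.83 ± 0.07 and among 2N cells by 0.39 ± 0.06 and 0.27 ± 0.07 (limma, adjusted p at most 0.00508).

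CEP120 (ENSG00000168944, chromosome 5, 123344885 to 123423592, minus strand), a centriole elongation factor, was the 1 duplication gene that rose with Anillin siRNA. It had 21.0, 19.9 and 19.9 RPM in control 2N, 28.4, 29.1 and 27.9 in control 4N, 24.8, 26.8 and 26.2 in knockdown 2N and 30.2, 32.8 and 31.4 in knockdown 4N. The 4 groups did not overlap, with control 2N lowest and knockdown 4N highest. CEP120 rose with Anillin siRNA by 0.35 ± 0.06 in the 2N fraction (adjusted p = 0.000148) and by 0.14 ± 0.06 in the 4N fraction (adjusted p = 0.0468), and from 2N to 4N by 0.49 ± 0.06 in control and 0.28 ± 0.06 in knockdown cells (limma, adjusted p = 2.98e-06 and 0.00648). The call among 4N cells was lost on leaving out any 1 control 4N library (adjusted p = 0.0934, 0.0583 and 0.131) and without knockdown 4N replicate 2 or 3 (0.167 and 0.0893), with voom (0.0541), and when the 4N groups were fitted alone (0.0507). With quantile scaling the change was 0.23 (adjusted p = 0.00265). SPICE1, which acts with CEP120, was the member called in none of the 6 comparisons tested, at 12.1 to 13.2 RPM by group mean. Of its exon bases, 34.6% are shared with another annotated gene on the same strand, AC112128.1, so its reads are uncertain.

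The capping proteins CCP110 and CEP97 bind each other at the distal end of the centriole and limit its growth. CCP110 (ENSG00000103540, chromosome 16, 19523811 to 19553408, plus strand) had 28.5, 28.4 and 31.4 RPM in control 2N, 39.2, 42.7 and 41.4 in control 4N, 26.1, 27.5 and 27.2 in knockdown 2N and 42.4, 41.1 and 38.1 in knockdown 4N. Both 4N groups lay above both 2N groups and overlapped each other. CCP110 rose from 2N to 4N by 0.48 ± 0.06 in control and by 0.59 ± 0.06 in knockdown cells (limma, adjusted p = 5.81e-06 and 2.93e-06), while its siRNA difference among 4N cells was -0.02 ± 0.06 (adjusted p = 0.799, 95% interval -0.15 to 0.11).

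CEP97 (ENSG00000182504, chromosome 3, 101723925 to 101770562, plus strand) had 15.2, 17.4 and 14.5 RPM in control 2N, 36.6, 36.4 and 34.6 in control 4N, 9.96, 12.5 and 10.3 in knockdown 2N and 12.4, 11.6 and 11.5 in knockdown 4N. The knockdown fractions overlapped and lay below every control library. CEP97 fell by 1.58 ± 0.09 in the 4N fraction (adjusted p = 3.21e-11) and by 0.52 ± 0.09 in the 2N fraction (adjusted p = 0.000162), and it rose by 1.18 ± 0.09 from 2N to 4N in control cells (adjusted p = 4.22e-09).

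**Figure D3:**
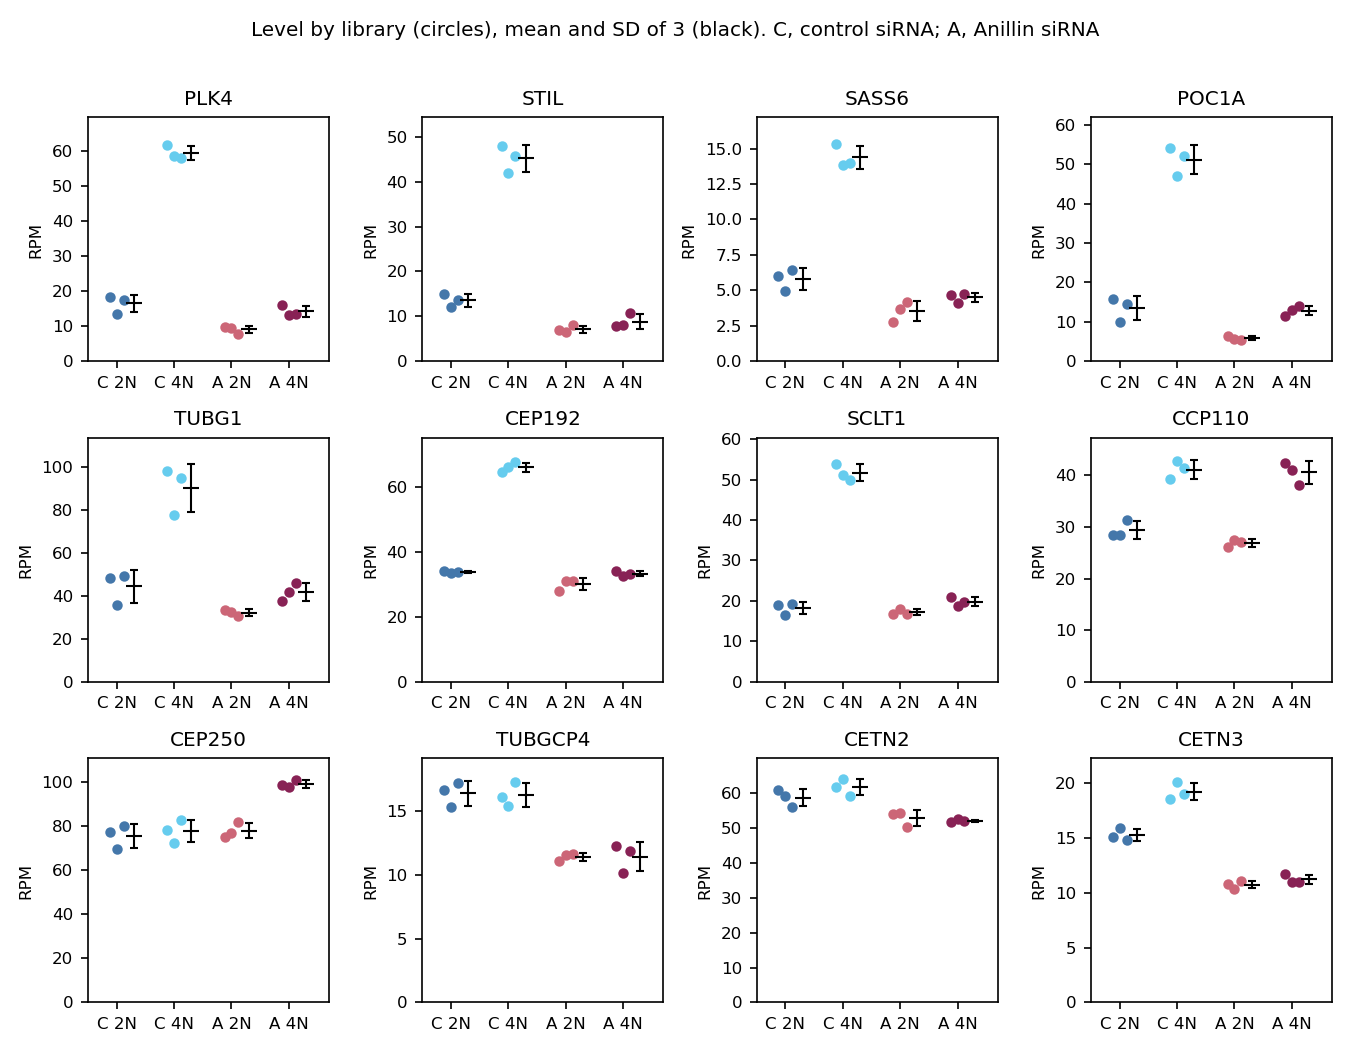
Level in RPM (linear axes from 0) of 12 members in each library (circles) with the mean and SD of 3 libraries (black) for control 2N (C 2N), control 4N (C 4N), knockdown 2N (A 2N) and knockdown 4N (A 4N). The first 7 panels have their highest points in control 4N, CCP110 is alike in both 4N groups, CEP250 is highest in knockdown 4N, and TUBGCP4 and CETN3 are lower in both knockdown groups.

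The gamma-tubulin ring complex, the template on which microtubules are nucleated, had 6 genes among the members, of which 4 fell and 1 rose with Anillin siRNA among 4N cells (28.1% and 24.6% of all genes). TUBG1 (ENSG00000131462, chromosome 17, 42609676 to 42615234, plus strand), the gamma-tubulin itself, had 48.4, 35.6 and 49.2 RPM in control 2N, 98.2, 77.4 and 95.0 in control 4N, 33.6, 32.6 and 30.5 in knockdown 2N and 37.7, 41.9 and 46.0 in knockdown 4N. Replicate 2 was the low library of both control groups, and knockdown 4N overlapped control 2N. It was also lowest in both control groups for ANLN, STIL, SASS6, CENPJ, CNTROB, TUBGCP4 and POC1A, but not for CEP97 or CETN3. TUBG1 fell by 1.10 ± 0.11 in the 4N fraction (adjusted p = 8.37e-08) and by 0.44 ± 0.11 in the 2N fraction (adjusted p = 0.00386). It rose by 1.03 ± 0.11 from 2N to 4N in control cells (adjusted p = 5.28e-07). TUBG2 is a near-identical copy of TUBG1, so the authors' counting could split reads between them, and TUBG2 averaged 30.8 to 35.4 RPM over the groups.

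NEDD1, which anchors the complex, averaged 41.1 ± 2.13, 62.8 ± 3.0, 30.7 ± 2.07 and 32.9 ± 1.02 RPM (SD, n = 3) in control 2N, control 4N, knockdown 2N and knockdown 4N, and fell among 4N and 2N cells by 0.92 ± 0.06 and 0.42 ± 0.06 (limma, adjusted p = 5.21e-10 and 4.25e-05). The ring subunit TUBGCP3 fell by 0.51 ± 0.09 in the 4N fraction (adjusted p = 5.6e-05). TUBGCP6 rose among 4N cells by 0.20 ± 0.06 (adjusted p = 0.00472), or by 0.32 with quantile scaling. TUBGCP2, a core ring subunit, had the smallest siRNA difference of any member among 4N cells, at -0.01 ± 0.05 (adjusted p = 0.831). With quantile scaling that difference was 0.14 (adjusted p = 0.0206), a call in the other direction, and 11.6% of its exon bases are shared with ZNF511 on the opposite strand. Its rise from 2N to 4N in control cells (0.15 ± 0.05, adjusted p = 0.0355) was lost with quantile scaling (0.679) and without control 2N replicate 1 or 2 or control 4N replicate 1 or 3 (0.0539, 0.195, 0.0771 and 0.131).

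TUBGCP4 (ENSG00000137822, chromosome 15, 43369221 to 43409771, plus strand), another subunit, differed between siRNAs alike in both fractions. It had 16.7, 15.3 and 17.2 RPM in control 2N, 16.1, 15.4 and 17.3 in control 4N, 11.1, 11.6 and 11.6 in knockdown 2N and 12.3, 10.1 and 11.9 in knockdown 4N. All knockdown libraries lay below all control libraries, and the fractions overlapped under both siRNAs. TUBGCP4 fell by 0.50 ± 0.08 among 4N cells and by 0.51 ± 0.08 among 2N cells (limma, adjusted p = 4.37e-05 and 0.000104), with a difference between fractions of -0.01 ± 0.08 in control cells (adjusted p = 0.924). It shares 33.4% of its exon bases with TP53BP1 on the opposite strand (117 RPM on average), and whether the authors counted by strand is not given in the sources used here, so its reads are uncertain.

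PCNT and CDK5RAP2, the scaffold that holds gamma-tubulin complexes in the pericentriolar material, rose by 0.75 ± 0.05 and 0.82 ± 0.05 from 2N to 4N in control cells and fell by 0.75 ± 0.05 and 0.90 ± 0.05 with Anillin siRNA among 4N cells (limma, adjusted p at most 1.94e-09). CDK5RAP2 averaged 68.1 ± 4.15, 120.5 ± 2.05, 63.8 ± 2.06 and 64.5 ± 1.24 RPM in control 2N, control 4N, knockdown 2N and knockdown 4N (SD, n = 3). Its 3 lower groups lay within 10 RPM of each other.

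Of the centrosome linker, the members CEP250 and CROCC encode C-Nap1 and rootletin, the fibres that tether the pair of centrosomes until mitosis. CEP250 (ENSG00000126001, chromosome 20, 35455164 to 35519280, plus strand) averaged 75.6 ± 5.33 RPM in control 2N, 77.9 ± 5.13 in control 4N, 78.0 ± 3.52 in knockdown 2N and 99.1 ± 1.67 in knockdown 4N (SD, n = 3), and CROCC 27.9 ± 1.41, 25.6 ± 2.30, 28.5 ± 1.41 and 32.4 ± 0.556. All 3 knockdown 4N libraries lay above the other 9 for both genes. Among 4N cells CEP250 rose by 0.35 ± 0.06 (adjusted p = 7.6e-05) and CROCC by 0.34 ± 0.07 (adjusted p = 0.00036). Neither was called between control 4N and control 2N (limma, adjusted p = 0.602 and 0.156). Other genes of the linker, looked up after their values were seen, did not all rise in this comparison of 4N cells: LRRC45 and CNTLN fell (-0.65 ± 0.12 and -0.15 ± 0.06, limma adjusted p = 0.000184 and 0.0326), and CEP68 did not pass the test (0.14 ± 0.06, limma adjusted p = 0.0716). CROCC has pseudogene copies with which reads could be shared, so its counts are uncertain.

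Distal appendages dock the mother centriole to membranes when a cilium forms, and SCLT1, one of their proteins, had the largest fall of the 5 among 4N cells. SCLT1 (ENSG00000151466, chromosome 4, 128864921 to 129093607, minus strand) had 19.1, 16.6 and 19.3 RPM in control 2N, 53.9, 51.2 and 49.9 in control 4N, 16.9, 18.0 and 16.8 in knockdown 2N and 21.0, 18.8 and 19.7 in knockdown 4N. Control 4N stood far above the other 3 groups, which lay close together. SCLT1 fell by 1.37 ± 0.07 in the 4N fraction (adjusted p = 1.15e-11) and rose by 1.49 ± 0.07 from 2N to 4N in control cells (adjusted p = 5.4e-12), with an siRNA difference of -0.08 ± 0.07 in the 2N fraction (adjusted p = 0.405).

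The other 4 distal appendage genes, CEP83, CEP89, CEP164 and FBF1, fell among 4N cells by between 0.21 ± 0.06 (CEP164, adjusted p = 0.00383) and 0.70 ± 0.06 (CEP89, adjusted p = 1.35e-08). With quantile scaling CEP164 was no longer called (adjusted p = 0.15), and FBF1 shares 49.6% of its exon bases with AC087289.3 on the same strand. Of the subdistal appendage genes, which anchor microtubules, ODF2 fell by 1.33 ± 0.06 in the 4N fraction (adjusted p = 1.9e-12), from 131 ± 4.15 to 52.2 ± 3.21 RPM (SD, n = 3), and NIN by 0.18 ± 0.06 (adjusted p = 0.0161). NIN was no longer called under quantile scaling (adjusted p = 0.495), on the RPKM scale (0.057), and without control 4N replicate 1 or 3 or knockdown 4N replicate 2 (0.052, 0.0638 and 0.0705).

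Centriolar satellites are granules that carry proteins to the centrosome, built on PCM1. PCM1 averaged 99.4 ± 3.30, 139 ± 3.56, 88.8 ± 3.47 and 96.2 ± 2.51 RPM in control 2N, control 4N, knockdown 2N and knockdown 4N (SD, n = 3) and fell by 0.53 ± 0.05 in the 4N fraction (adjusted p = 3.76e-08). CEP72 and CEP131, both satellite proteins, fell by 1.02 ± 0.16 and 0.57 ± 0.08 among 4N cells (limma, adjusted p = 2.36e-05 and 8.32e-06). CEP72 was the member with the fewest reads, 68 in its lowest library, and shares 11.0% of its exon bases with TPPP on the opposite strand.

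CEP290, a transition zone protein also found in satellites, fell by 0.34 ± 0.06 in the 2N fraction (adjusted p = 0.000277) and by 0.23 ± 0.06 in the 4N fraction (adjusted p = 0.00333, lost with quantile scaling at 0.0777). OFD1, which caps the distal end, averaged 34.5 ± 1.89, 27.8 ± 2.51, 33.7 ± 0.633 and 31.8 ± 2.97 RPM in control 2N, control 4N, knockdown 2N and knockdown 4N (SD, n = 3). It fell by 0.31 ± 0.07 from 2N to 4N in control cells (adjusted p = 0.00251) and rose by 0.19 ± 0.07 with Anillin siRNA among 4N cells, where its libraries overlapped (adjusted p = 0.0357). That rise was not called without control 4N replicate 1 or 3 or knockdown 4N replicate 1 (0.19, 0.13 and 0.12, adjusted p = 0.0721, 0.196 and 0.208), with voom (0.052), with no filter (0.0799) or on the RPKM scale (0.0777).

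POC1A (ENSG00000164087, chromosome 3, 52075253 to 52154690, minus strand), a WD-repeat protein of the centriole wall, had 15.7, 10.0 and 14.6 RPM in control 2N, 54.1, 47.0 and 52.1 in control 4N, 6.56, 5.58 and 5.55 in knockdown 2N and 11.6, 13.0 and 13.9 in knockdown 4N. Control 4N was highest and knockdown 2N lowest, and knockdown 4N overlapped control 2N. POC1A fell by 1.97 ± 0.13 in the 4N fraction (adjusted p = 2.65e-10) and by 1.13 ± 0.13 among 2N cells, the largest fall of a member there (adjusted p = 1.88e-06). It rose by 1.93 ± 0.13 from 2N to 4N in control cells (adjusted p = 6.87e-10) and by 1.09 ± 0.13 after knockdown (adjusted p = 9.3e-06).

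POC5, which binds centrins inside the centriole, fell by 1.03 ± 0.09 in the 4N fraction (adjusted p = 1.01e-08). Its centrin partners CETN2 and CETN3 are calcium-binding proteins of the lumen. CETN2 (ENSG00000147400, chromosome X, 152826973 to 152830777, minus strand) had 60.8, 59.3 and 56.2 RPM in control 2N, 61.8, 64.0 and 59.3 in control 4N, 53.9, 54.4 and 50.3 in knockdown 2N and 51.7, 52.4 and 51.9 in knockdown 4N. Every knockdown library lay below every control library, by a small margin. CETN2 fell by 0.25 ± 0.05 in the 4N fraction (adjusted p = 0.000653), or by 0.13 with quantile scaling (adjusted p = 0.0434), and its difference between fractions was 0.07 ± 0.05 in control cells (adjusted p = 0.297) and -0.02 ± 0.05 after knockdown (adjusted p = 0.864).

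CETN3 (ENSG00000153140, chromosome 5, 90392261 to 90409786, minus strand) had 15.0, 15.9 and 14.8 RPM in control 2N, 18.5, 20.1 and 19.0 in control 4N, 10.8, 10.4 and 11.1 in knockdown 2N and 11.7, 11.0 and 11.0 in knockdown 4N. Knockdown libraries lay below control libraries in each fraction, and the knockdown fractions overlapped. CETN3 fell by 0.76 ± 0.07 in the 4N fraction (adjusted p = 3.21e-08) and by 0.50 ± 0.07 in the 2N fraction (adjusted p = 2.35e-05), and rose by 0.33 ± 0.07 from 2N to 4N in control cells (adjusted p = 0.000987), with 0.06 ± 0.07 after knockdown (adjusted p = 0.705).

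Several of the smaller falls among 2N cells, near the threshold, were lost when any 1 of several libraries was left out. CETN2 (-0.15 ± 0.05, adjusted p = 0.0362) was not called without control 2N replicate 1 or 2 or knockdown 2N replicate 3 (adjusted p = 0.143, 0.0625 and 0.146), and PCM1 (-0.16, adjusted p = 0.016) was not called without control 2N replicate 1 or knockdown 2N replicate 2 (0.0639 and 0.081). CEP192 (-0.17, adjusted p = 0.0253) was not called without control 2N replicate 1 or 3 or knockdown 2N replicate 1 (0.0772, 0.0567 and 0.132). PCNT (-0.14, adjusted p = 0.0451) was not called without control 2N replicate 1 or 3 or knockdown 2N replicate 1 or 2 (0.0892, 0.141, 0.136 and 0.0992). CEP72 (-0.43, adjusted p = 0.0457) was not called without control 2N replicate 1 or 3 or any 1 of the knockdown 2N libraries (0.131, 0.258, 0.0952, 0.101 and 0.093), and without control 2N replicate 3 its difference was -0.26. Some of these calls were also lost under other scalings, with no filter or with the 2N groups fitted alone.

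Of the 9 rises from 2N to 4N after knockdown, those of POC1A, PLK4, CCP110 and CEP152 were the largest, and CEP152 rose by 0.54 ± 0.09 (adjusted p = 0.000942). CENPJ rose by 0.36 ± 0.07 (adjusted p = 0.00628) and CEP250 by 0.35 ± 0.06 (adjusted p = 0.00114). TUBG1 (0.37 ± 0.11, adjusted p = 0.0491) and ODF2 (0.26 ± 0.06, adjusted p = 0.0152) completed the set with CEP120. The TUBG1 call was lost without any 1 knockdown 2N library (adjusted p = 0.0763, 0.129 and 0.189) or knockdown 4N replicate 2 or 3 (0.144 and 0.205), and under 5 other settings (0.0518 to 0.205). That of ODF2 was lost without knockdown 2N replicate 2 or 3 or knockdown 4N replicate 3 (0.0665, 0.0571 and 0.094), and on the RPKM scale POC1A, CENPJ and ODF2 were not called (0.0882, 0.0824 and 0.0745).

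Knockdown 4N cells were also set against control 2N cells, since both may hold G1 cells while their DNA content differs. Here 6 members rose (14.4% of all genes tested called higher), 11 fell (17.6% called lower) and 22 did not pass the test, with a median of -0.08 beside -0.01 over all genes. CEP120 rose by 0.63 ± 0.06 (adjusted p = 1.86e-07), CCP110 by 0.46 ± 0.06 (adjusted p = 1.29e-05) and CEP250 by 0.39 ± 0.06 (adjusted p = 6.12e-05). STIL fell by 0.61 ± 0.11 (adjusted p = 0.0003), TUBGCP4 by 0.52 ± 0.08 (adjusted p = 8.97e-05), CEP152 by 0.45 ± 0.09 (adjusted p = 0.000972) and CETN3 by 0.44 ± 0.07 (adjusted p = 8.38e-05).

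PLK4, TUBG1 and POC1A did not pass this test, with differences of -0.20 ± 0.11, -0.07 ± 0.11 and -0.04 ± 0.13 (limma, adjusted p = 0.156, 0.643 and 0.838) and 95% intervals of -0.43 to 0.02, -0.30 to 0.15 and -0.30 to 0.22. Without control 2N replicate 2, PLK4 was called lower (-0.33, adjusted p = 0.00877). The rises of CROCC, CEP164 and TUBGCP6 (0.21, 0.15 and 0.16) were each lost when 1 of several libraries was left out. Without control 2N replicate 1 or knockdown 4N replicate 2, 3 members were called higher in place of 6, with adjusted p of 0.0917 and 0.0706 for CROCC, 0.0788 and 0.0521 for CEP164 and 0.154 and 0.123 for TUBGCP6. CEP164 was also lost without control 2N replicate 2 or 3 or knockdown 4N replicate 3 (0.0923, 0.0572 and 0.224), and TUBGCP6 without knockdown 4N replicate 1 (0.0799).

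Among the falls, those of SASS6 (-0.34, adjusted p = 0.0483), ODF2 (-0.18, adjusted p = 0.0268) and CETN2 (-0.17, adjusted p = 0.0157) were not called in some fits with 1 library left out. SASS6 was lost on leaving out replicate 1 or 3 of control 2N (adjusted p = 0.128 and 0.18) or any 1 knockdown 4N library (0.0714, 0.163 and 0.0662). ODF2, whose libraries overlapped, was lost without control 2N replicate 1 or 3 or knockdown 4N replicate 1 or 2 (0.128, 0.0932, 0.0825 and 0.125), and CETN2 without control 2N replicate 1 (0.0733).

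**Figure D4:**
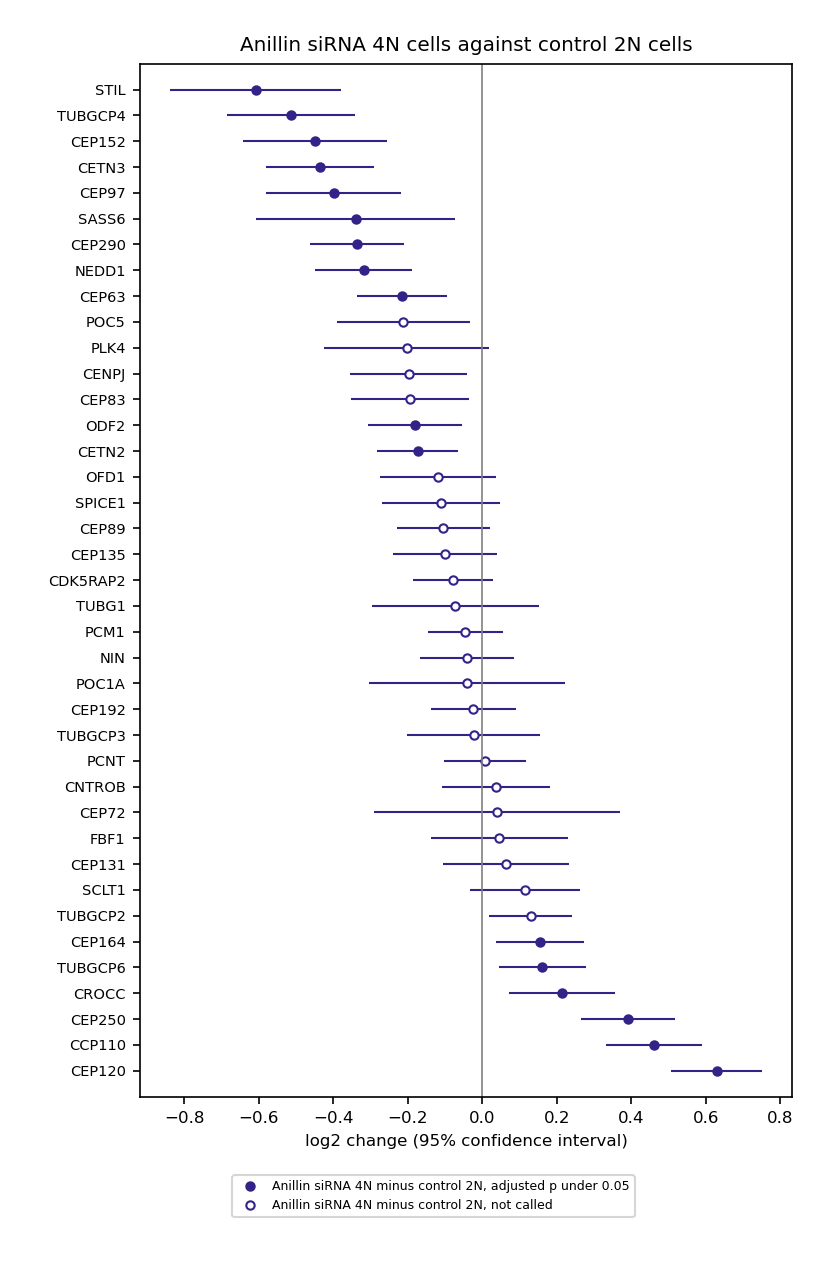
Log2 change of each member in knockdown 4N minus control 2N cells (points) with its 95% confidence interval from the limma fit (3 libraries against 3), filled where the adjusted p was under 0.05. STIL is lowest at -0.61 and CEP120 highest at 0.63, and the intervals of PLK4, TUBG1 and POC1A include 0.

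Whether the effect of Anillin siRNA differed between fractions was tested with the interaction. It was lower (a more negative effect among 4N cells) for 23 members, beside 10.5% of all genes tested, and higher for 2, CEP250 and CROCC, beside 7.97%. The median was -0.44, beside -0.0030 over all genes. STIL had the largest difference of effects, -1.43 ± 0.15 (adjusted p = 4.25e-06), followed by SCLT1 at -1.29 ± 0.10 (adjusted p = 8.93e-08), PLK4 at -1.21 ± 0.15 (adjusted p = 2.11e-05), CNTROB at -1.13 ± 0.10 (adjusted p = 3.77e-07), CEP97 at -1.07 ± 0.12 (adjusted p = 9.03e-06) and SASS6 at -0.93 ± 0.18 (adjusted p = 0.00148).

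TUBG1 was called too (-0.65 ± 0.15, adjusted p = 0.0056), and CETN3 and CETN2 were not (-0.27 ± 0.10 and -0.09 ± 0.07, limma adjusted p = 0.0654 and 0.42). For CEP250 and CROCC the values were 0.30 ± 0.09 and 0.31 ± 0.10 (limma, adjusted p = 0.0176 and 0.0308). Neither was called with no filter on low values (0.0506 and 0.0644). CROCC alone was also lost, leaving 1 member in place of 2, without control 2N replicate 3, control 4N replicate 1, knockdown 2N replicate 2 or 3 or knockdown 4N replicate 1 or 2 (adjusted p = 0.0723, 0.0963, 0.0844, 0.0542, 0.0525 and 0.0712).

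Levels of different members are set side by side per exon length, here RPM per kb of merged exons. This takes all reads as exonic. Whether the authors counted reads in introns is not given in the sources used here, so the order of members is uncertain. In control 2N cells they ran from 1.20 ± 0.0743 for CEP152 to 30.5 ± 1.23 for CETN2 (SD, n = 3), with a median of 3.41 over the 39 members. TUBG1 (18.4 ± 3.16) and TUBGCP2 (14.3 ± 1.04) came after CETN2, and the libraries of these 2 genes overlapped. PLK4, at 3.69 ± 0.562, lay near the middle, and SASS6 (1.46 ± 0.193) and STIL (1.86 ± 0.194) near the bottom. In control 4N cells TUBG1 was highest at 37.4 ± 4.65, POC1A reached 22.7 ± 1.63 and PLK4 13.3 ± 0.435. In knockdown 4N cells POC1A was at 5.72 ± 0.518 and PLK4 at 3.18 ± 0.341.

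**Figure D5:**
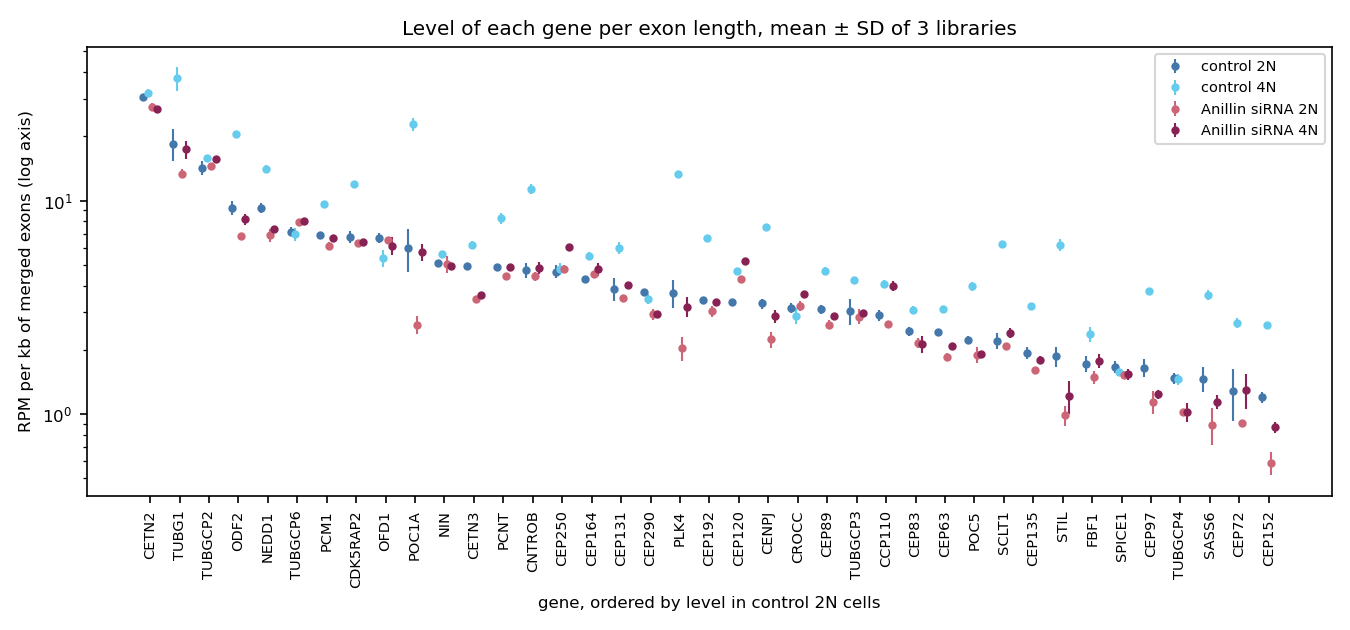
Mean level ± SD of 3 libraries for each member in RPM per kb of merged exons (log axis), in the 4 groups, with genes ordered by their level in control 2N cells. CETN2 is highest in control 2N (30.5) and CEP152 lowest (1.20), and control 4N points stand clear of the rest for POC1A, PLK4, STIL and SCLT1.

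Many genes of the cell cycle share short promoter elements: CCAAT boxes bound by NF-Y, cell cycle homology regions (TTTGAA or TTCGAA) bound by the MuvB complex, and E2F sites (TTGGCGC or TTCCCGC). The 250 bases before the RefSeq start on GRCh38.p14 are printed for the 3 members with the largest falls among 4N cells, for TUBGCP2, which differed least, and for SCLT1, added after its values and matches were seen because it holds all 3 kinds. The promoters of CEP152 and CEP192, not printed, hold all 3 kinds too. Capitals mark these letters on either strand, and all 5 are read 5′ to 3′ along the gene's own strand.
STIL, chr1:47314148-47314397, minus strand: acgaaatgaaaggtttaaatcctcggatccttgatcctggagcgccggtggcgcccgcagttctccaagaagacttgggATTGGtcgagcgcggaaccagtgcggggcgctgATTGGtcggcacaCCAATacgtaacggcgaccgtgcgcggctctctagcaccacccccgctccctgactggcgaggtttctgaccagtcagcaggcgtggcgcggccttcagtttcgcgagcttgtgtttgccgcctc
PLK4, chr4:127880643-127880892, plus strand: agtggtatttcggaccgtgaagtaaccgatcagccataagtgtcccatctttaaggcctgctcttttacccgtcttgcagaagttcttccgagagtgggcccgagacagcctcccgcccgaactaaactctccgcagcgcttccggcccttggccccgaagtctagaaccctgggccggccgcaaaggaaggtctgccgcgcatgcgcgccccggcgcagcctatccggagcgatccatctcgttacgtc
POC1A, chr3:52154424-52154673, minus strand: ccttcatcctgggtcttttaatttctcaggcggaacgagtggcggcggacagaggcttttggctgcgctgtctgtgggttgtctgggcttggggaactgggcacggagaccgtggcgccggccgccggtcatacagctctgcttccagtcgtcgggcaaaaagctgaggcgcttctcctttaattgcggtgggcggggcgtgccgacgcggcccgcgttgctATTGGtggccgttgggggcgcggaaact
TUBGCP2, chr10:133312338-133312587, minus strand: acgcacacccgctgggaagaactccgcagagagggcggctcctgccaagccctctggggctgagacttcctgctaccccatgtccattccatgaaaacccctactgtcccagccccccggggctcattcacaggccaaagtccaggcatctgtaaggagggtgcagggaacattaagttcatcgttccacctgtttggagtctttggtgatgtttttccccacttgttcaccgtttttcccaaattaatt
SCLT1, chr4:129093540-129093789, minus strand: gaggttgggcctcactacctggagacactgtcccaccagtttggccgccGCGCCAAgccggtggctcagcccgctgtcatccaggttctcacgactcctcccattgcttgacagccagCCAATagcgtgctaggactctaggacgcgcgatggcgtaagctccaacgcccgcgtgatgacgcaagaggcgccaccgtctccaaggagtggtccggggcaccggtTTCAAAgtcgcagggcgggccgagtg

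STIL holds CCAAT letters 3 times, at 171 to 167, 138 to 134 and 125 to 121 bases upstream of the start, and POC1A once at 28 to 24. SCLT1 holds TTGGCGC at 201 to 195, CCAAT at 132 to 128 and TTTGAA at 26 to 21 bases upstream. PLK4 and TUBGCP2 hold none of these letters in this window. These distances are counted from the RefSeq start, which is not always the start of the GENCODE gene position given above. The whole POC1A window, with its CCAAT letters, lies inside the GENCODE gene. The SCLT1 window lies partly inside its gene, and its TTTGAA letters are in that part. The last bases of the PLK4 window are inside its gene too, while the STIL window lies outside. RefSeq promoters were matched by symbol for 33 of the 39 members. Of those 33, 13 (39.4%) held CCAAT, beside 32.0% of all 35116 promoters of the same length, 5 (15.2%) held TTTGAA or TTCGAA, beside 14.3%, and 7 (21.2%) held TTGGCGC or TTCCCGC, beside 7.81%. The members' promoters were limited to a single RefSeq start per gene and to genes tested here, and the 35116 were not. These shares are thus set against an unlike set. A match of letters is a description, not a bound site.

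Of 49 further centriole and centrosome genes tested, 38 fell and 4 rose among 4N cells with Anillin siRNA (28.1% and 24.6% of all genes), with a median of -0.62. The largest falls were those of WDR62, a spindle pole and centriole protein (-2.75 ± 0.14, adjusted p = 1.9e-11), MZT1, a small gamma-tubulin complex protein (-2.04 ± 0.08, adjusted p = 3.16e-13), and CEP128, a subdistal appendage protein (-2.00 ± 0.13, adjusted p = 2.64e-10). Those that rose were PIDD1, KIZ, AKAP9 and ANKRD26 (0.24 to 0.59). PIDD1 and ANKRD26 belong to the distal appendage pathway that senses extra centrosomes. PIDD1, KIZ, AKAP9 and ANKRD26 all fell from 2N to 4N in control cells (-0.46 to -0.28, limma adjusted p at most 0.00374). The same control 4N libraries enter their rise and this fall, so the fall is not a separate result. Against control 2N, knockdown 4N was higher for PIDD1 (0.25, limma adjusted p = 0.0291). KIZ, AKAP9 and ANKRD26 were not called there (0.01, -0.04 and -0.03, limma adjusted p = 0.951, 0.704 and 0.74). In control cells 39 of the 49 rose and 4 fell from 2N to 4N (21.2% and 19.6% of all genes). Among 2N cells 19 fell with Anillin siRNA and 0 rose (limma, 17.0% of all genes called lower and 12.5% higher).

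Of 16 regulators of the centrosome cycle, 10 fell and 1, BTRC, rose among 4N cells with Anillin siRNA (28.1% and 24.6% of all genes). NEK2, the kinase that dissolves the CEP250 and CROCC linker, fell by 3.22 ± 0.11 (adjusted p = 1.37e-13), AURKA, which matures the centrosome before mitosis, by 2.58 ± 0.09 (adjusted p = 1.37e-13), and ESPL1, the separase that disengages centrioles, by 2.46 ± 0.14 (adjusted p = 3.21e-11). In control cells NEK2, AURKA and ESPL1 rose from 2N to 4N by 3.21, 2.63 and 2.51 (limma, adjusted p at most 3.96e-11). None of them was called between knockdown 4N and control 2N (-0.01, 0.05 and 0.05, limma adjusted p = 0.976, 0.708 and 0.812). In that comparison 3 of the 16 regulators were called higher and 4 lower (14.4% and 17.6% of all genes). Higher were PLK1 (0.925, limma adjusted p = 1.71e-06), CCNF (0.531, 0.00243) and BTRC (0.227, 0.00573). Lower were NEK7 (-0.909, limma adjusted p = 4.39e-10), PLK2 (-0.443, 6.41e-05), NEK9 (-0.411, 1.22e-05) and FBXW11 (-0.275, 0.000523). With Anillin siRNA among 4N cells, PLK1 and CCNF changed by -2.332 and -2.235 (limma, adjusted p at most 3.09e-11). Of 9 genes of the program that makes many centrioles in multiciliated cells, FOXJ1, GMNC, DEUP1 and CDC20B were under 1 RPM in every library. The summed level of the 9 was 34.27 to 42.38 RPM over the 12 libraries, most of it from RFX3. By group mean RFX3 had 23.65 to 25.51 RPM, RFX2 6.107 to 7.918 and CCNO 4.941 to 6.284, with MCIDAS and MYB lower than CCNO. Among 4N cells 1 of the 7 tested was called with Anillin siRNA, FOXJ1, which fell (-0.85 ± 0.32, limma adjusted p = 0.0326). CDKN1A, the p53 target that encodes p21, rose among 4N cells by 1.46 ± 0.06 (adjusted p = 6.72e-13), from 337 ± 29.2 to 921 ± 16.9 RPM (SD, n = 3).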

How the data were processed

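Each of the 12 libraries, 3 for each siRNA and sorted fraction, was measured by RNA-seq. The deposited file is 1 table of RPKM (reads per kilobase of gene per library total), made by the authors. The submitters' processing notes name hg19, TopHat2, edgeR and CASAVA 1.8.2 without a role. The authors' annotation, counter and strand use were not given in the sources used here. The labels name both a stranded mRNA kit and ribo-depleted total RNA. Tested on the values, the deposited RPKM of a gene were whole reads (tolerance 0.01 read) divided by the gene's genomic span, introns included, by the library total and by an authors' scaling of 0.951 to 1.04. The span was that of GENCODE 29 for 29239 of the 38571 identifiers above 0 and the common divisor of the values for the other 9332. For the members, 25 lengths were GENCODE 29 spans and 14 came from the divisor.

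RPKM were multiplied by that length in kb, which gives RPM and keeps the authors' scaling. RPKM by span sets long genes low: with 0.5 RPKM as a filter, 22 of the 39 members would be tested. Genes with at least 0.5 RPM in at least 3 libraries (19591) were tested with limma-trend (limma 3.58.1, R 4.3.3) on log2(RPM + 0.25), with 1 mean per group over 12 libraries, two-sided, Benjamini-Hochberg adjusted over all genes, threshold 0.05. A log2 change on this scale understates that of low genes. All adjusted p in the text come from limma. Depth ranged from 17412742 to 61760450 reads in genes, and the median coefficient of variation of a member within a group was 4.75%. The labels speak of biological replicates but name no separate cultures, so the p-values reflect the spread between these libraries, which may be technical.

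The members and gene lists were chosen with earlier results of these data known. Library values are given for the 6 largest called changes per comparison and for PLK4, TUBG1, CETN2 and CETN3. Other settings were pseudocounts of 0.05 and 1 RPM, no filter, a filter of 2 RPM, log2(RPKM + 0.5), voom on the whole reads (22404 genes), quantile and median-of-ratios scaling, fits to the groups compared alone, and each library left out. The scripts were tested on simulated data. Exons and overlaps come from GENCODE 29 on GRCh38, a later build than hg19, and promoters from RefSeq on GRCh38.p14. Python 3.11.15, pandas 2.3.3, numpy 2.4.6 and matplotlib 3.10.9 were used.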

Additional observations from a re-analysis of the deposited data

Results flagged for a closer look

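For 25 of the 39 members the effect of Anillin siRNA among 4N cells differed from that among 2N cells by the interaction test (adjusted p under 0.05). It was lower for 23 and higher for 2, beside 10.5% and 7.97% of all genes tested. Values are the log2 effect among 4N cells minus that among 2N cells. Among duplication genes the difference was -1.43 for STIL, -1.21 for PLK4, -1.13 for CNTROB, -0.93 for SASS6, -0.82 for CENPJ, -0.82 for CEP192, -0.56 for CEP152 and -0.56 for CEP135. It was -1.07 for the capping gene CEP97, and among nucleation genes -0.65 for TUBG1, -0.51 for NEDD1 and -0.43 for TUBGCP3. In the scaffold it was -0.81 for CDK5RAP2 and -0.60 for PCNT, and at the appendages -1.29 for SCLT1, -0.89 for ODF2, -0.46 for CEP89, -0.35 for CEP83 and -0.29 for CEP164. Satellites and centriole wall gave -0.44 for CEP131, -0.36 for PCM1, -0.84 for POC1A and -0.80 for POC5. CEP250 and CROCC had values above 0, 0.30 and 0.31.

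The CEP83 difference (adjusted p = 0.0287) was not called without control 2N replicate 1, control 4N replicate 3, knockdown 2N replicate 1 or 3 or knockdown 4N replicate 1 or 2 (adjusted p = 0.0567, 0.0764, 0.06, 0.0636, 0.0711 and 0.0771), with no filter or with voom. That of TUBGCP3 (adjusted p = 0.0178) was not called without knockdown 2N replicate 3 (adjusted p = 0.0516) or with no filter. For CEP164 (limma adjusted p = 0.0145) the call was lost with quantile scaling and on the RPKM scale (limma adjusted p from 0.0594 to 0.0683).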

How the results depend on the processing

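On log2(RPKM + 0.5), 22 of the 39 members could be tested. Called higher and lower there were 2 and 16 in knockdown 4N against control 4N (5 and 31 on RPM), 0 and 11 in knockdown 2N against control 2N (1 and 21), 16 higher in control 4N against control 2N (30), 3 higher in knockdown 4N against knockdown 2N (9), 3 and 5 in knockdown 4N against control 2N (6 and 11), and 1 and 14 for the interaction (2 and 23). Fewer members tested is part of that setting. With voom 3 members were higher in knockdown 4N against control 4N. Higher in knockdown 2N against control 2N were 2 with a filter of 2 RPM, 2 with quantile scaling and 2 with median-of-ratios scaling. With quantile scaling 3 were lower in control 4N against control 2N, and with no filter 0 had a higher interaction (limma, at adjusted p 0.0506 for CEP250 and 0.0644 for CROCC). TUBGCP2 reversed with quantile scaling, from -0.015 to 0.143 in knockdown 4N against control 4N (adjusted p = 0.0206). The cause was not tested. The all-gene median shifted by at most 0.037 under either scaling.

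With 1 library left out, the higher count was 3 to 4 in knockdown 4N against control 4N, 3 to 6 in knockdown 4N against control 2N and 1 to 2 for the interaction, and the other counts stayed within 1.5 times. Of 1965 member results under the 9 other settings, 1895 kept their call or stayed uncalled, 54 lost and 15 gained a call, and 1 reversed. Of 1638 with 1 library left out, 1553 kept their call or stayed uncalled, 73 lost and 12 gained a call. The sign changed in 72 results called in neither fit, which are counted among those that stayed uncalled. No paired analysis was possible because the sample numbers in the labels run on from group to group and tie no 2N fraction to a 4N fraction. Reads without molecular identifiers and 3 libraries a group limit small changes most.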
